A study of Mus musculus with 18 samples.

Results

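The 200 genes with the strongest array signal in ribosome-bound RNA of wild-type mouse Purkinje cells were described, out of 18194 genes that could be ranked. They were chosen by the mean log2 value over 9 wild-type libraries, each gene being represented by its brightest probe set (a group of short array probes for 1 transcript), so their high level is the selection itself and carries no test. The 9 libraries are 3 each at 4, 8 and 12 weeks of age, and each holds RNA from the pooled cerebella of 4 mice, 2 male and 2 female. All mice, the controls included, were hemizygous for a bacterial artificial chromosome in which the Pcp2 (L7) promoter drives the ribosomal protein L10a joined to green fluorescent protein, on a background of 50% C57B6 and 50% FVB. A further 9 libraries of the same ages came from mice that also carried L7CGG90Fmr1, a transgene named for the L7 promoter, 90 CGG repeats and Fmr1. Wild type here means without that second transgene, and libraries of mice without the ribosome tag were not analysed here.

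Purkinje cells are the large inhibitory neurons that form the only output of the cerebellar cortex, and they fire continuously at high rates. In translating ribosome affinity purification, tagged ribosomes are pulled out of a tissue lysate and the messenger RNA on them is measured, so that the profile comes mostly from the cells that make the tag, with some RNA of other cells carried along. In these pooled samples fewer cells of a type and less RNA per cell cannot be told apart.

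The promoter of Pcp2 matters here because it sets which cells carry the tag, and Pcp4 and Pvalb are the other Purkinje markers among the 12 highest genes. Their 250 bases before the most upstream listed start, from RefSeq on GRCm38.p6, lie at chr8:3625548-3625797 on the minus strand, chr16:96467356-96467605 on the plus strand and chr15:78206401-78206650 on the minus strand. Capitals mark a match to any of 6 motifs searched on both strands, none of which contains another. They are the core promoter element TATAAA, the NRF1 motif GCATGCGC, the ETS factor motif CCGGAAG, the YY1 motif AAGATGGC, the Sp1 motif GGGCGG and the cyclic AMP response element TGACGTCA. A match is a description of letters, not a site or a cause.
Pcp2: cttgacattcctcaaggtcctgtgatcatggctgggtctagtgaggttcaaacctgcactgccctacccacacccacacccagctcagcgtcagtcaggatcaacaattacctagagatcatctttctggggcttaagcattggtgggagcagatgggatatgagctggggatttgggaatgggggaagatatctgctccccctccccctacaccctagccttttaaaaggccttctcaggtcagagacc
Pcp4: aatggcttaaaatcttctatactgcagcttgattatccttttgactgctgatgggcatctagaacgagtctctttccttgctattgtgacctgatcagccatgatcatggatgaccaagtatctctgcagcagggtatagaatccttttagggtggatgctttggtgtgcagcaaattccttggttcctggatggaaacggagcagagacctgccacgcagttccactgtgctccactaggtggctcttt
Pvalb: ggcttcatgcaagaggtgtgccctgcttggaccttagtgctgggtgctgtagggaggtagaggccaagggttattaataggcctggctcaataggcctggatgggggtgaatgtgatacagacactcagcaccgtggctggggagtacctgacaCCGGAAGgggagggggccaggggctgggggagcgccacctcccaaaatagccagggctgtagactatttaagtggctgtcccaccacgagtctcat
Pvalb held 1 ETS match in this stretch, and the letters of the 6 motifs were found neither in that of Pcp2 nor in that of Pcp4.

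The values fell smoothly along the ranking, with no step at its edge. The highest gene had a mean log2 signal of 15.20 and the one at rank 200 a mean of 13.31, a span of 1.90 log2 units, and the median of the 200 was 13.80. Means of at least 15 were found for 4 genes, of 14 to 15 for 71 and below 14 for 125. Just inside the limit stood Ndufaf8 (13.32), Ppp2r1a (13.32) and Lamtor2 (13.31), and just outside it Rbbp4 (13.31), Dner (13.30) and Camk2n2 (13.30). Within 0.1 of the limit lay 29 members and 29 genes that are not members, so the edge separates genes of nearly equal signal. On the linear scale the 200 genes, 1.10% of those ranked, held between 27.9% and 29.5% of the summed signal of a library. Of the 200, 196 are protein coding in the reference gene table, Malat1 and Gas5 are long noncoding RNAs and Gm12338 is a transcribed pseudogene. AY036118 was matched to none of these types.

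**Figure D1:**
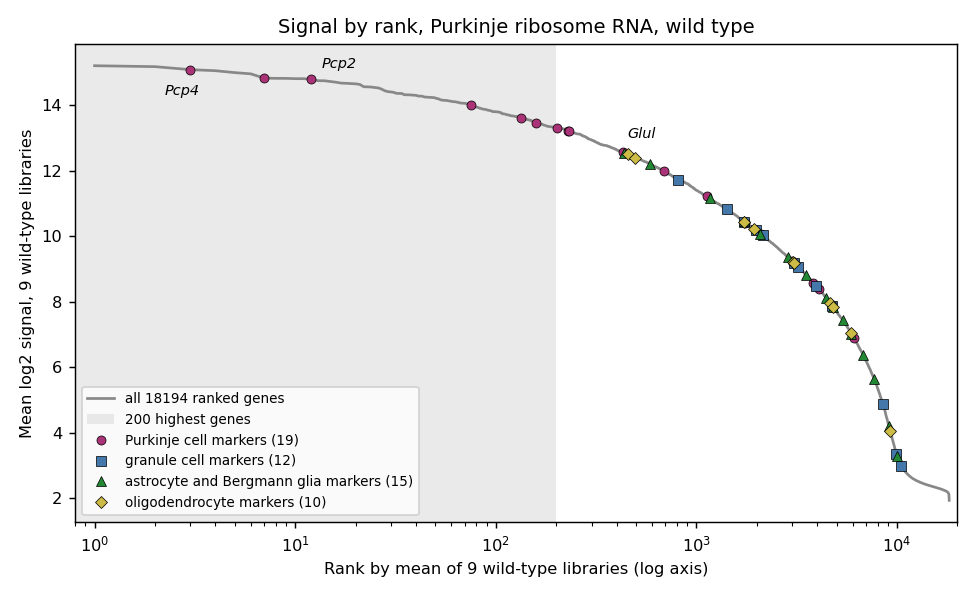
Mean log2 signal over the 9 wild-type libraries (vertical axis) against rank on a log axis for all 18194 ranked genes (line), with the 200 highest genes shaded and the ranked markers of 4 cell types as points. Purkinje markers reach rank 3 (Pcp4), while the highest marker of the other 3 types shown is Glul at rank 434.

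Pebp1, which binds and restrains the kinase Raf, had the highest signal. Its values were 15.31, 15.32 and 15.28 at 4 weeks, 15.22, 15.14 and 15.21 at 8 weeks, and 15.04, 15.29 and 15.04 at 12 weeks (SD between libraries of one age 0.09). Hnrnpab, a nuclear RNA-binding protein, followed at 15.18 with an SD of 0.06, and its libraries ran from 15.08 to 15.23. Its place rests on its brightest probe set, since its next brightest had a mean of 12.09. The next brightest probe set of Pebp1 had a mean of 14.72. Both genes stayed within 0.3 log2 units over all 9 libraries. Ranks 4 to 6 were AY036118 (15.05), Selenow, which encodes a small selenoprotein (14.99), and Vdac1, the main channel of the outer mitochondrial membrane (14.96). Ranks 8 to 11 were Atp5k (14.82), Cox5b (14.82), Mdh1 (14.81) and Ndufa5 (14.81), all genes of mitochondrial respiration or of the shuttle that feeds it. The order within ranks 8 to 11 is not settled, since these means differ by less than the SD of each gene between libraries. The brightest probe set of any kind in these libraries read between 15.74 and 15.86, and whether the array's upper limit compresses the members' values was not tested.

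Of 19 ranked genes that mark Purkinje cells, 6 were among the 200 highest, or 31.6% against 1.10% of all ranked genes. The list named 24 genes and, like the other lists, was chosen with earlier results of these data known. Of all 18194 ranked genes, 10068 passed the signal filter of the tests described below. Pcp4, a small calmodulin-binding protein, stood at rank 3 with 15.15, 15.10 and 15.04 at 4 weeks, 15.07, 14.94 and 15.16 at 8 weeks, and 14.97, 15.18 and 15.17 at 12 weeks. Pvalb, a fast calcium buffer, stood at rank 7 with a mean of 14.83. Pcp2, which modulates G protein signalling and whose promoter drives the tag, stood at rank 12 with 14.75, 14.81 and 14.55 at 4 weeks, 14.93, 14.78 and 14.91 at 8 weeks, and 14.73, 14.91 and 14.75 at 12 weeks. The 3 ages overlapped in all of these genes. Car8, which binds the inositol trisphosphate receptor and is mutated in a form of hereditary ataxia, had 14.01 at rank 75. Ppp1r17, a phosphatase inhibitor phosphorylated by cyclic GMP-dependent kinase, had 13.61 at rank 134. Calb1, a calcium buffer used as the standard Purkinje stain, had 13.47 at rank 158 and ran from 12.88 in the library of replicate 3 at 12 weeks to 13.76 in that of replicate 1 at 4 weeks. Dner (rank 202), Inpp5a (230) and Rgs8 (231) lay just below the limit, and the transcription factors Lhx1, Lhx5 and Foxp2 lay at ranks 2983, 3825 and 6084, so the marker list spans most of the detectable scale.

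**Figure D2:**
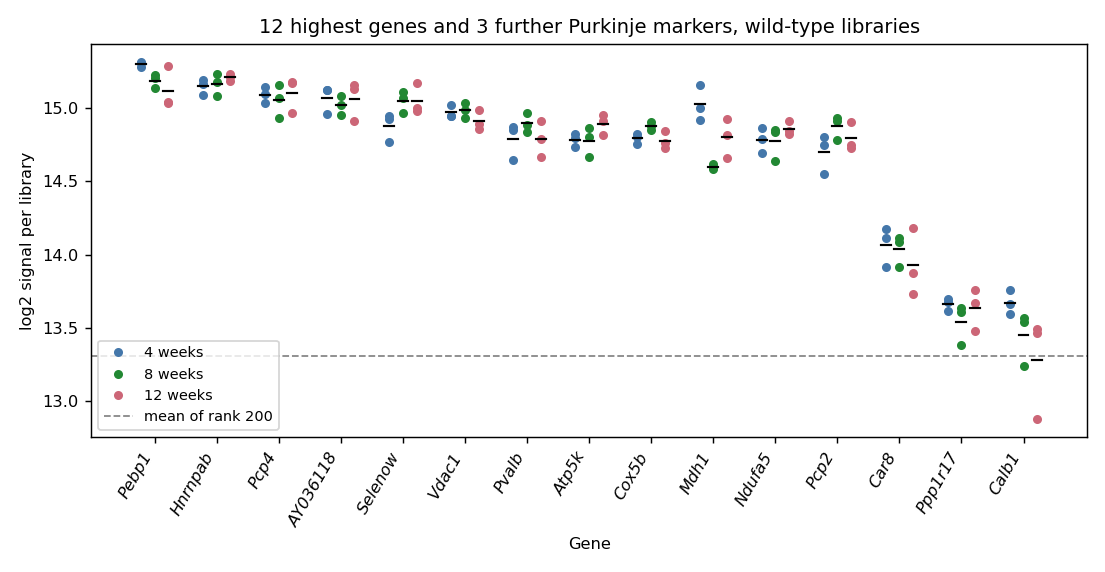
Log2 signal of each wild-type library (points, coloured by age) for the 12 highest genes and 3 further Purkinje markers, with short lines for the mean of each age (n = 3) and a dashed line at the mean of rank 200. Pcp4, Pvalb and Pcp2 sit between 14.55 and 15.18 in all libraries, while Calb1 falls below the dashed line in 2 of them.

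All 19 ranked Purkinje markers had a mean above 4. None of the 12 granule cell, 15 astrocyte and Bergmann glia, 10 oligodendrocyte, 9 microglia, 9 endothelial and mural, 6 interneuron or 4 blood cell markers ranked was among the 200 (0 of each list). The brightest were Glul of astrocytes (rank 434), Mbp of oligodendrocytes (456), Cbln1 of granule cells (813), Slc32a1 of the interneuron list (848), the vesicular GABA transporter that Purkinje cells also use, Hba-a2 of red blood cells (1541), Laptm5 of microglia (3810) and Vtn of mural cells (4382). The mean over the 61 markers of granule cells, glia, vessels and interneurons lay between 5.86 and 8.35 per library, 14 of them having a mean below 4, while the mean over the 19 Purkinje markers lay between 11.38 and 12.13. Single markers overlapped between the lists, since Glul (12.55) and Mbp (12.49) each exceeded 9 of the 19 Purkinje markers. Without Slc32a1 the mean over the other 60 lay between 5.77 and 8.30. The choroid plexus list was the exception, since Ttr, its secreted thyroid hormone carrier, stood at rank 151. The other 3 markers of that list, Kl (2.96), Folr1 (2.59) and Aqp1 (2.25), had means at the lower end of the scale. In their highest wild-type libraries Kl read 5.23 and Folr1 3.95. The mean over the 4 markers was 6.34 in replicate 3 at 12 weeks and 4.73 to 5.47 in the other wild-type libraries.

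Genes of oxidative phosphorylation made up the largest group. The respiratory chain passes electrons through complexes I to IV of the inner mitochondrial membrane, and the ATP synthase uses the proton gradient that results. Of 84 ranked nuclear genes of these complexes 46 were among the 200 highest, or 54.8% of the list and 23.0% of the members, and their median rank over the whole list was 158. The ATP synthase, with its inhibitor Atpif1 counted, gave 13 of 18 genes, led by Atp5k, and complex I gave 19 of 35, led by Ndufa5. Complex IV gave 8 of 17, led by Cox5b, complex III gave 4 of 9, led by Uqcrh (14.49), and complex II gave 1 of 4, Sdhc (13.73). Cycs, the electron carrier cytochrome c, stood at rank 59 with 14.13. The median SD between libraries of one age was 0.12 in this group and 0.13 over all 200 members.

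The genes of the list that lay beyond rank 1000 were 13. They included complex IV isoforms known from heart and skeletal muscle, lung or testis, namely Cox7a1 (10.63), Cox4i2 (7.14), Cox6a2 (4.53), Cox8b (3.34), Cox7b2 (2.44) and Cox8c (2.03). They also included subunits that every respiring cell uses, such as Cox7c (2.52), Ndufb4 (2.48), Ndufb1 (6.60) and Ndufs1 (8.58), so a low value in this ranking does not show a low transcript level. A rank mixes the amount of transcript with how well a probe set binds it, and values of different genes are compared here only as signal. Of the genes of the mitochondrial genome, ND5, a subunit of complex I, was ranked under that symbol, at rank 590 with 12.20, and is not in the list of nuclear genes.

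**Figure D3:**
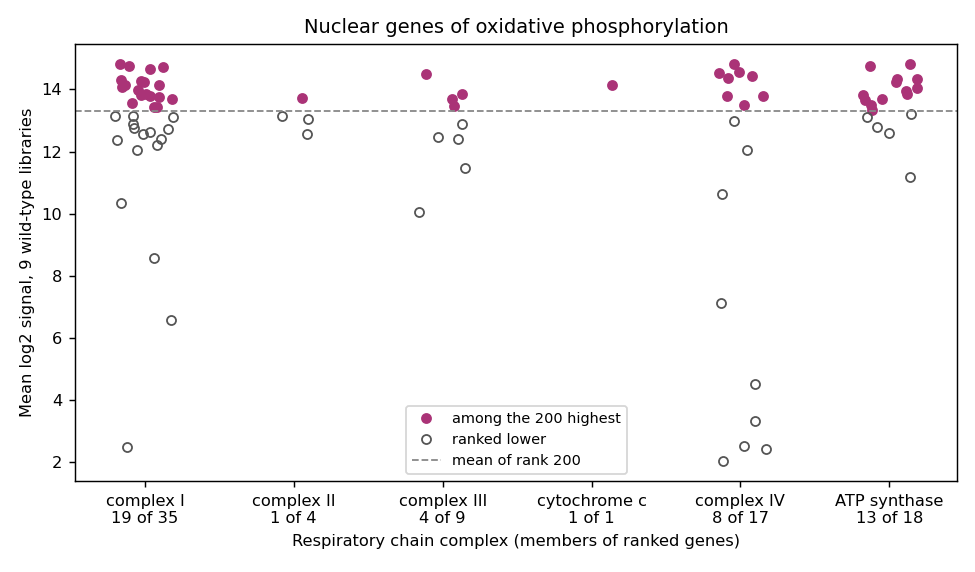
Mean log2 signal over the 9 wild-type libraries for 84 nuclear genes of oxidative phosphorylation, grouped by complex, with filled points for the 46 among the 200 highest and open points for the others. The ATP synthase has the largest share above the dashed line (mean of rank 200) among the complexes with more than 1 gene, 13 of 18. Its inhibitor Atpif1 is counted among the 13.

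The letters of 3 of the 6 motifs (AAGATGGC, CCGGAAG and GCATGCGC) were held by a share of the oxidative phosphorylation members over 1.5 times that of all ranked genes. Over the 250 bases before and 50 after the start, 161 members, 37 of them in this group, and 14453 of all ranked genes had a RefSeq entry. AAGATGGC was present in 13.5% of the group (5 of 37), 5.59% of all members and 3.67% of all genes. CCGGAAG was present in 27.0%, 23.6% and 13.8% of the same sets, and GCATGCGC in 10.8%, 8.07% and 4.27%. GGGCGG was present in 48.6% of the group, 64.6% of all members and 54.0% of all genes. TATAAA (10.8%, 11.2% and 9.87%) and TGACGTCA (2.70%, 3.73% and 2.65%) lay closer together. Over all 69 ranked oxidative phosphorylation genes with an entry, among the 200 highest or not, AAGATGGC was present in 11.6%, GCATGCGC in 14.5% and CCGGAAG in 23.2%, so these shares are not particular to the members. Median GC content was 60.3% in members and 58.7% in all genes. These shares are descriptions without a test. The 5 windows are shown because they let the position of the motif be compared, with the match in capitals and up to 8 bases on either side.
Ndufc1: tgcggaacAAGATGGCgccgtccg
Atp5j2: aggacttcAAGATGGCgtcactcg
Ndufs7: ccgaggccAAGATGGCggcgctgg
Ndufa3: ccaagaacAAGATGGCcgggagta
Ndufb8: agaaggtgAAGATGGCtgcc
They lie on GRCm38.p6 at chr3:51408918-51408941 (minus strand), chr5:145191503-145191526 (minus strand), chr10:80249465-80249488 (plus strand), chr7:3617387-3617410 (plus strand) and chr19:44555393-44555412 (minus strand). All 5 matches read in the direction of transcription and began between base 23 and base 39, counted from 1 at the start. The match contains ATG, and its relation to the start codon was not examined.

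The list of glycolysis, the malate-aspartate shuttle and the brain creatine kinase Ckb gave 9 of 19 ranked genes, or 8 of 18 without Ckb. They were led by Mdh1 (14.81), the cytosolic malate dehydrogenase, Gapdh (14.39), Ldhb (14.24), the lactate dehydrogenase subunit favoured in oxidative tissue, and Aldoc (14.04), the aldolase whose protein marks stripes of Purkinje cells. Redox and iron-binding genes gave 5 of 10, among them Selenow, Sod1 (14.36), which removes superoxide, Gpx4 (13.64), which reduces lipid peroxides, and Park7 (13.58). Sod1 varied least of all members with Cox5b, and both had an SD of 0.04 between libraries of one age.

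Ribosomal protein genes gave 12 of 49 ranked, or 24.5% of the list. Rpl38 (14.70), Rpl35 (14.65), Rps29 (14.56) and Rpl41 (14.28) stood highest. Rpl10a, the protein that carries the tag, had a mean of 12.77 at rank 347, and its probe set was not shown to separate the endogenous gene from the tagged copy. The count of 12 is low by construction. Of 384 probe sets at least as bright as rank 200, 280 carried 1 symbol and 57 several, and 38 of these 57 named a ribosomal protein together with other symbols. They held 23 ribosomal protein symbols, 16 of which had no probe set of their own and were not ranked. Translation factors gave 3 of 26, Eif5a (14.12), Tpt1 (13.69) and Eef1d (13.37). The proteasome, which breaks down tagged proteins, gave 0 of 39, its highest subunit being Psma6 at rank 232 with 13.20.

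Neuronal signalling and structure gave several further groups. G proteins, their partners and kinases gave 9 of 22, led after Pebp1 by Gng13 (14.67), a G protein gamma subunit, and by the 14-3-3 proteins Ywhae (14.63) and Ywhah (14.56). The cytoskeleton gave 13 of 39, led by Cfl1 (14.54), which severs actin filaments, the tubulin Tuba4a (14.25), the profilin Pfn2 (14.25) and Actb (14.16). Synaptic vesicle and traffic genes gave 6 of 25, led by the fusion proteins Vamp2 (14.40) and Snap25 (14.36), with Clta (13.73) and Gabarapl1 (13.59). Calcium signalling gave 4 of 25, which are Pcp4, Pvalb, Calb1 and the calcium sensor Hpcal1 (13.88). The vacuolar proton pump gave 3 of 22, Atp6ap2 (14.27), Atp6v1d (13.92) and Atp6v1c1 (13.37).

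Other lists contributed 4 members or fewer each. Chaperones gave 4 of 22 (18.2%), Hspa8 (14.24), Fkbp1a (14.05), Hspe1 (13.87) and Cct7 (13.51). The ubiquitin pathway gave 2 of 8 (25%), Ube2d3 (13.50) and Nedd8 (13.36). Both shares stand against 1.10% of all ranked genes, and the lists were chosen with earlier results of these data known. The ubiquitin list named 18 genes, of which only 8 could be ranked. One gene each came from GABA and glutamate signalling (Nsg1, 1 of 12), plasma membrane pumps and channels (Atp1b1, 1 of 16), secretory and lysosomal proteins (Laptm4b, 1 of 25), hnRNP and SR proteins (Hnrnpab, 1 of 29), hereditary ataxia genes (Car8, 1 of 14) and the listed long noncoding RNAs (Malat1, 1 of 7). Immediate early genes gave 0 of 12, the highest being Jund at rank 240. Fmr1 itself had a mean of 7.42 and stood at rank 5373. No list held 75 of the 200 members.

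Which probe set stands for a gene decides much of the ranking. Probe sets ending in _x_at, whose probes can bind other transcripts, stood for 48 members (24.0%, against 4.07% of all ranked genes), and those ending in _s_at, shared by several transcripts, for 31 (15.5% against 5.18%). Members with 2 or more probe sets were 159, and the brightest exceeded the next by a median of 1.10 log2 units, by over 3 in 32 genes and by over 5 in 17. The widest gaps belonged to Cox17 (14.09 against 2.34), Tpt1 (13.69 against 2.05), Atpif1 (14.32 against 2.75), Syp (13.46 against 2.21) and Nsg1 (13.90 against 2.76). In each of these the second probe set lay at the lower end of the scale. With the mean of all probe sets in place of the brightest, 107 of the 200 genes stayed among the 200 highest, and 146 did when both endings were left out. The count of oxidative phosphorylation genes was 41 under each of these rules.

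Libraries agreed closely on the members. The SD between libraries of one age had a median of 0.13 over the 200 genes and ran from 0.04 to 0.94, while it was 0.20 over the next 200 ranks and 0.56 over the 10068 genes tested below. An SD of at most 0.1 was found for 55 members (27.5%) and for 1.01% of the tested genes. All 200 members passed the filter of those tests, which asked for 3 or more of the 18 libraries to reach 4 on the log2 scale. In all 9 libraries 128 members were among the 200 highest genes of that library, each library shared between 170 and 182 of them, and the lowest member was among them in 3 libraries. Besides Cox5b and Sod1, the steadiest members were Ndufb7, Rpl38, Rps29, Cox6c, Ndufb9, Tuba4a, Dynlrb1 and Atp5j, each with an SD of 0.05.

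**Figure D4:**
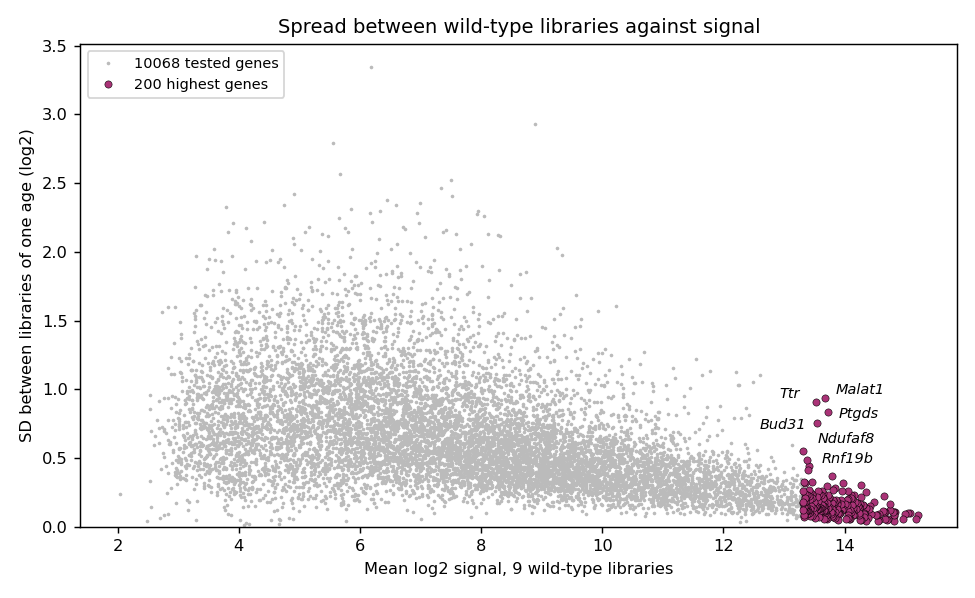
SD between wild-type libraries of one age (vertical axis, log2, pooled over 3 ages of 3 libraries) against mean log2 signal for 10068 tested genes (grey) and the 200 highest genes (filled). Most members lie at the lower right, and Malat1, Ttr, Ptgds, Bud31 and Ndufaf8 stand above 0.5.

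A few members varied far more than the rest, and 5 had an SD above 0.5. Ttr had 12.32, 13.91 and 14.34 at 4 weeks, 13.68, 14.17 and 11.97 at 8 weeks, and 13.69, 13.76 and 13.90 at 12 weeks (SD 0.91). Ptgds, a prostaglandin synthase abundant in meninges, choroid plexus and oligodendrocytes, had 12.72, 14.29 and 14.12, then 13.82, 14.38 and 12.21, then 14.15, 13.69 and 14.11 (SD 0.83). Both genes were lowest in replicate 3 at 8 weeks and replicate 1 at 4 weeks. These are also the libraries with the lowest means over the 61 markers of other cells, 5.86 and 6.26, while the other 7 libraries lay between 6.78 and 8.35. The CGG90 libraries of the same immunoprecipitation dates at 4 weeks had nearly the same Ttr values, 12.37, 13.77 and 14.34 for replicates 1 to 3, and marker means of 6.52, 7.37 and 8.42. At 8 weeks the CGG90 library that shared the date of wild-type replicate 3 did not, with a Ttr value of 14.19 and a marker mean of 7.53. The part of other cells and of the date in the Ttr and Ptgds values was not tested. All 4 probe sets of Ttr spread over at least 2.37 log2 units, so the spread is not that of 1 probe set.

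Malat1, a nuclear RNA that is not translated, had the widest spread of all (SD 0.94). It read 13.55, 12.82 and 14.70 at 4 weeks, 13.26, 14.80 and 13.46 at 8 weeks, and 13.50, 12.48 and 14.52 at 12 weeks. Its 3 highest libraries were replicate 3 at 4 weeks, replicate 2 at 8 weeks and replicate 3 at 12 weeks, whose marker means were 8.35, 7.83 and 7.42. Replicate 2 at 4 weeks, with a marker mean of 7.63, read 12.82. Bud31, a splicing factor, read 13.48, 13.94 and 12.25, then 13.90, 12.80 and 14.10, then 13.08, 13.98 and 14.39 (SD 0.75), and was lowest in replicate 3 at 4 weeks, where the marker mean was highest. Ndufaf8, an assembly factor of complex I, was lowest in the same library (12.35) with an SD of 0.55. Rnf19b (SD 0.49), Itgb1bp1 (0.44), Tmsb10 (0.41), Hcfc1r1 (0.37) and Uqcrq (0.33) followed. Of the 200 members, 49 had their lowest value in replicate 3 at 4 weeks and 66 in replicate 3 at 12 weeks, against 5 to 21 in each of the other 7 libraries. The same libraries held the highest value of 32 and 25 members, against 10 to 36 in each of the other 7. Replicate 3 at 12 weeks also had the lowest Purkinje marker mean, 11.38. What sets these libraries apart was not tested.

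**Figure D5:**
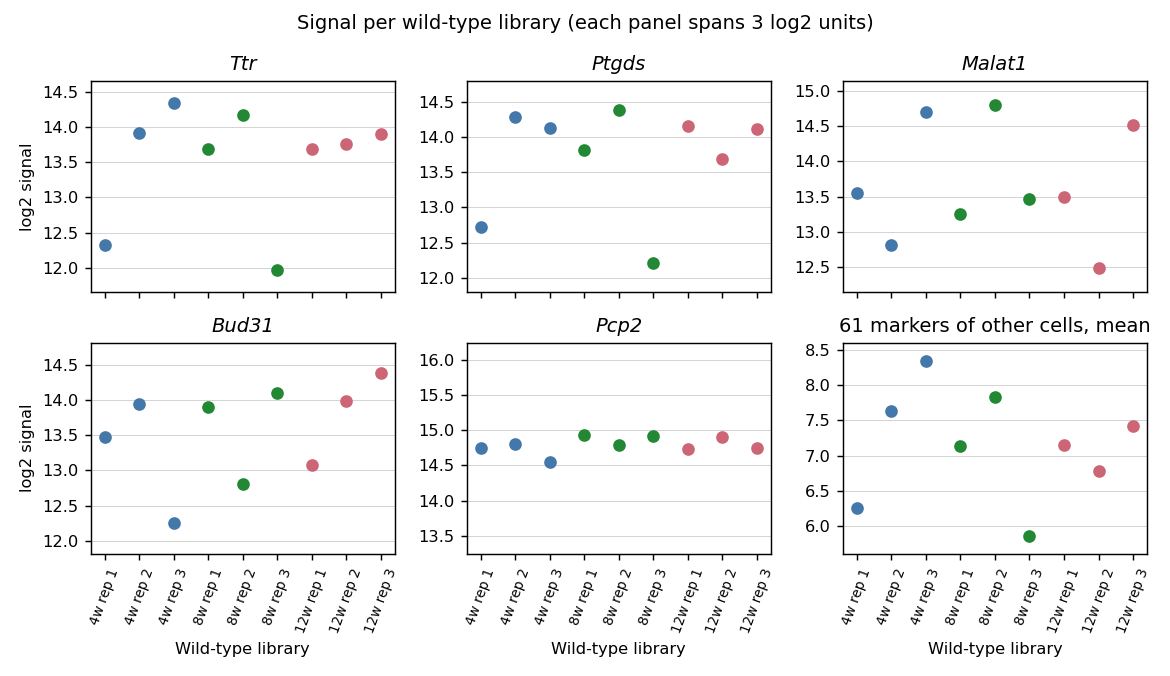
Log2 signal in each of the 9 wild-type libraries (coloured by age) for 4 variable members, for Pcp2 and for the mean of 61 markers of other cerebellar cells, every panel spanning 3 log2 units. Ttr and Ptgds are lowest in the libraries with the lowest marker mean (replicate 1 at 4 weeks and replicate 3 at 8 weeks), while Pcp2 stays between 14.55 and 14.93.

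Age was compared within wild type with limma, a linear model with moderated variance, over 10068 genes with Benjamini-Hochberg adjustment. The fit pooled the spread within 6 groups over all 18 libraries, so p-values measure the spread between pools of mice of both genotypes. The 9 wild-type libraries carry 9 different immunoprecipitation dates, so among them pool and date cannot be told apart. No member passed an adjusted p of 0.05 at 8 against 4 weeks (0 members, 0% of the genes tested), at 12 against 8 weeks (0 members, 0%) or at 12 against 4 weeks (0 members, 0%). Unadjusted p-values under 0.05 were found for 3, 1 and 8 members, against 4.38%, 5.63% and 8.84% of all genes. With a prior variance that follows the signal, an alternative chosen after the data were seen because bright genes vary less than the common prior assumes, they were found for 33, 28 and 42 members, against 4.75%, 5.99% and 9.51%. No member passed the adjusted threshold in these fits of all libraries either, and the smallest adjusted p of a member was 0.166.

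The sizes were small. At 8 against 4 weeks the median absolute difference was 0.10 in members and 0.31 in all genes, and 2 members exceeded 0.5. Ppp2r1a, the scaffold subunit of protein phosphatase 2A, had 13.46, 13.58 and 13.63 at 4 weeks, 12.99, 13.03 and 12.82 at 8 weeks, and 13.29, 13.44 and 13.60 at 12 weeks. Its 8-week libraries lay below all others, with differences of -0.61 ± 0.19 (SE) from 4 to 8 weeks and 0.50 ± 0.19 from 8 to 12 weeks (limma adjusted p = 0.999 and 0.80). Mdh1 ran from 14.92 to 15.16 at 4 weeks and had 14.59, 14.60 and 14.62 at 8 weeks, without overlap (-0.43 ± 0.18, limma adjusted p = 0.999). Tubb2a, a neuronal tubulin, differed by -0.47 in the same comparison. The largest in the other direction by p were Coprs (0.44), Gm12338 (0.35) and the cochaperone Bag1 (0.35).

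At 12 against 4 weeks 6 members exceeded 0.5 in size. Gas5, a noncoding RNA that hosts small nucleolar RNAs, had 13.10, 13.34 and 13.21 at 4 weeks and 13.79, 13.68 and 14.39 at 12 weeks (0.74 ± 0.24, limma adjusted p = 0.452), and the groups did not overlap. Dynll2, a dynein light chain, followed with 0.65, and Gabbr1, a subunit of the GABA-B receptor, with 0.49. Cct7, a subunit of the chaperonin that folds actin and tubulin, differed by -0.55, Tubb2a by -0.50 and Actb by -0.47. Actb passed in 1 setting, the variance trend without replicate 2 at 12 weeks (-0.62, limma adjusted p = 0.0321). At 12 against 8 weeks the members of smallest p besides Ppp2r1a were Rplp2 (0.43) and the kinase Cdk16 (0.36), and in the other direction Eif3i (-0.34), Atp5c1 (-0.32) and Ckb (-0.37). The 12-week wild-type libraries form a run of title numbers of their own, and that run and the age of 12 weeks cannot be told apart. Wild-type libraries of 4 and 8 weeks share a run. A further number in the titles is shared by all libraries of an age and differs between all ages. That number and age cannot be told apart in any of the age comparisons.

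All 9 members of the glycolysis, shuttle and Ckb list had lower means at 12 than at 4 weeks, with differences from -0.47 to -0.11 and a median of -0.26, and none passed the test. Without Ckb, the lowest of them, 8 of 8 were lower with a median of -0.25. Over all 10068 genes 59.5% were lower and the median was -0.13. Of the 200 members 113 were lower, with a median of -0.02. Scaled to a common 75th percentile the median of all genes moved to 0.02 and 8 of the 9 were lower, with a median of -0.12. With quantile normalisation it moved to -0.02, and all 9 were lower with a median of -0.25. Without replicate 3 at 12 weeks, the library with the most lowest values, all 9 were lower with a median of -0.16, and without replicate 2 at 12 weeks the median was -0.42. The medians over all genes in these fits were -0.08 and -0.14. Of the 13 cytoskeleton members 9 were lower, with a median of -0.16, and of the 9 G protein and kinase members 8 were, with a median of -0.11. Of the 46 oxidative phosphorylation members 28 were lower, with a median of -0.02, and of the 12 ribosomal protein members 7 were, with a median of -0.01.

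The same genes stood at the top in the CGG90 libraries. Members were chosen by high wild-type means, so lower values and ranks in CGG90 are favoured by the choice. The probe set of each gene was picked over all 18 libraries, CGG90 included, so the overlap is a description. Of the 200 members 190 were among the 200 highest there, including all of the first 100, and the other 10 fell no further than rank 225. Farthest down were Arf3 (186 to 225), Nefl (190 to 222), Rnf19b (174 to 219), Rpl37a (189 to 217) and Rps24 (183 to 215), whose means differed by 0.08 to 0.15 log2 units. The difference of CGG90 from wild type, averaged over ages, exceeded 0.2 in size for 3 members and had a median of 0.00, against -0.02 over all genes. No member passed the adjusted threshold (0 members, 0% of genes), and unadjusted p-values under 0.05 were found for 0 members against 2.1% of genes, or for 5 members against 1.98% with the variance trend. The largest by p were H2aj (0.29 ± 0.15, SE), Bud31 (0.37 ± 0.25) and Dynll2 (0.19 ± 0.13), and in the other direction Pigq (-0.20 ± 0.13), Ndrg4 (-0.17 ± 0.12) and Rplp2 (-0.17 ± 0.12), all at limma adjusted p = 1.00. Title-number runs differ between the genotypes at 8 and 12 weeks, so at those ages run and genotype cannot be told apart. At 4 weeks both genotypes lie in the same run and share 3 immunoprecipitation dates, 1 for each replicate number. A limma fit of these 6 libraries with the date as a block, added after the data were seen, called 0 members (0% of genes). The median absolute difference was 0.04 in members and 0.18 in all genes, and the members ran from -0.26 (Cct7) to 0.99 (Bud31).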

How the data were processed

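The authors deposited 1 log2 value per probe set and library, made with GCRMA per the submitters' processing notes. Which arrays were normalised together, the array's genome build and the tool version are not given in the sources used here, and the number of arrays limits the precision. Of 45101 probe sets, 34958 carried exactly 1 symbol in the platform annotation, 932 several and 9211 none. Each gene was represented by the probe set of highest mean over all 18 libraries, which gave 18194 genes, ranked by their mean over the 9 wild-type libraries. The members and the 30 gene lists were chosen with earlier results of these data known. Differences were fitted with limma 3.58.1 in R 4.3.3 with 1 mean for each of 6 groups, 12 residual degrees of freedom and two-sided tests (Benjamini-Hochberg over 10068 genes, threshold 0.05), and the script was tested on simulated data. Ranks, list counts and promoter motifs are descriptions. Genes named are the 10 highest, the 10 of largest and of smallest SD, the 3 genes on either side of rank 200, Pcp2, Rpl10a and Fmr1, up to 4 per list, all markers among the 200, the 3 of smallest p in each direction per comparison (fewer than 5 passed), the 5 widest probe set gaps and the 5 farthest down in CGG90. Others were chosen after their values were seen. Protein sequences were not analysed here. Alternatives changed the scaling, filter, probe set choice, array weights, blocks, variance prior and libraries used.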

Additional observations from a re-analysis of the deposited data

Results flagged for a closer look

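Among 92 named members, 4 had 1 wild-type library far from the other 8 by Dixon's ratio of gap to range at the 95% level, a rule that chance meets in about 1 of 20 groups. A count of 4 among 92 is no more than that share, so the flags are descriptions. Tmsb10 and Rnf19b were named for their large SD, to which 1 far library adds. Tmsb10, which binds actin monomers, read 12.48 in replicate 1 at 4 weeks against 13.21 in the next lowest library. Rnf19b, an E3 ubiquitin ligase, read 12.21 in replicate 3 at 12 weeks against 13.19. Rps24 and Rpl37a, both ribosomal proteins, read 12.91 and 12.77 in replicate 1 at 8 weeks against 13.27 and 13.26. Of the 12 ribosomal protein members, these 2 had their lowest value in that library.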

How the results depend on the processing

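Membership depended most on the probe set. The mean of all probe sets left 107 of the 200 genes in place and leaving out _x_at and _s_at probe sets 146, while the median, each age alone, quantile normalisation and a common 75th percentile left 183 to 200, and leaving out 1 library left at least 194. The median SD of 0.134 became 0.170 with a common 75th percentile, 0.157 over all 9 libraries, 0.180 with the mean of all probe sets and 0.125 to 0.142 without 1 library. Oxidative phosphorylation genes numbered 41 to 49, ribosomal proteins 9 to 15 and Purkinje markers 6 to 9. The overlap with CGG90 was 189 or 190.

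Over 81 alternative fits of the age comparisons and 52 of the genotype comparison, 0 members were called except 1 (Actb, 12 against 4 weeks, variance trend without replicate 2 at 12 weeks). Over all genes at 8 against 4 weeks, the filter at 6, quantile normalisation, the 75th percentile and the mean of probe sets each called 1 and array weights 46, and leaving out 1 library 0 to 2 (0 to 1 with the variance trend). At 12 against 8 weeks leaving out 1 library called 0 to 5, with or without the trend. At 12 against 4 weeks no filter called 7, array weights 4, the variance trend 3 (also with date as a block or quantile normalisation), and leaving out 1 library 0 to 4 (0 to 15 with the trend). For genotype the mean of probe sets, array weights and leaving out replicates 1 and 2 labelled CGG90 12 weeks each called 1, as did 4 weeks alone without a block and with a variance trend and the block, and leaving out 1 library 0 to 2 with or without the trend. The causes were not tested.

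With the replicate number as a block 0 members were called in all 4 comparisons. At 4 weeks the numbers pair the genotypes by immunoprecipitation date (deviations of same-date libraries correlated at 0.0205 to 0.609 across genes), and the fit with that pairing as a block called 0 members and 0 genes. Same-date pairs of the genotypes at other ages correlated at -0.303 (8 weeks), -0.0404 and -0.0879 (12 weeks). Across ages the numbers were not used as pairs, since same-number wild-type libraries of different ages had deviations that correlated between -0.533 and 0.161 across genes, and 2 of 9 libraries correlated best with their own number. The fits at 4 weeks alone, the variance trend, the list counts and the glycolysis alternatives were chosen after seeing the data.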

Other observations

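Members outside the lists, picked here after their values were seen, included several genes of 1 pathway. Odc1, the first enzyme of polyamine synthesis, had a mean of 13.32 (SD between libraries of one age 0.17), and Oaz1 and Oaz2, the antizymes that bind it and target it for degradation, had 14.06 (0.09) and 13.50 (0.15). Lamtor1 and Lamtor2, parts of the complex that anchors mTORC1 signalling to lysosomes, had 13.64 (0.15) and 13.31 (0.18). Further mitochondrial genes outside the respiratory list were Chchd10 (14.41), Micos10 (13.94), the ADP/ATP carrier Slc25a4 (13.56), Tomm7 (13.39) and Higd1a (13.34). These are single-gene levels without a comparison.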
